A study of Mus musculus with 2 samples.

Results

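The mouse duodenum renews its lining from stem cells at the base of the crypts, and 10 genes that mark or regulate these cells were measured here in 2 libraries. The genes were Lgr5, Olfm4, Ascl2, Smoc2, Axin2, Rnf43, Znrf3, Sox9, Lrig1 and Msi1. They were taken by symbol, with no limit set on their values, from a table of 43346 annotated genes. The 46 rows that the transcript tables hold for them were taken too. Earlier results of these data were known when the genes were chosen. All 10 passed the filter on low counts (a mean count of at least 10), as did 15921 genes in all.

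The series is a survey of polyadenylated RNA in whole duodenum and has 1 group. Both libraries came from adult, 8 week old C57BL/6J mice, with male and female littermates pooled. The RNA was longer than 200 nt, polyadenylated and depleted of ribosomal RNA, and was sequenced in stranded, paired reads of 76 bases. The labels number the libraries as biological replicates 1 and 2, list them under separate biosamples but 1 donor entry, and do not say that they came from separate animals. The SD (standard deviation) and the coefficient of variation below therefore measure the spread between these libraries, which may be technical in part. Intervals and p-values cover counting error only.

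Crypt base columnar cells divide throughout life, and Wnt signalling keeps them in that state. R-spondins bind Lgr receptors and thereby protect Frizzled, the Wnt receptor, from the ubiquitin ligases Rnf43 and Znrf3, which otherwise remove it from the cell surface. Stabilised β-catenin then enters the nucleus and, with Tcf factors, switches on targets that include Lgr5, Ascl2, Axin2, Sox9 and both ligases, so the pathway carries its own brakes. Stem cells are a small share of the tissue, and several of the 10 genes are also active in other cells: Sox9 in Paneth cells and pancreatic ducts, and Lgr5 in gland bases of the stomach. In whole tissue, fewer cells of a type and less RNA per cell cannot be told apart.

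The 2 libraries held 44977004 and 45438504 expected counts (reads shared out among transcripts by the quantification), and 3 counts, taken as the floor for a gene at 0, correspond to 0.0624 and 0.0729 CPM (scaled counts per library of fixed size). They differed in genes of neighbouring organs and glands. Pancreatic acinar genes summed to 85280 TPM in replicate 1 but to 1217 in replicate 2, and 14 of 14 were higher in replicate 1. For 11 stomach genes the sums were 12775 and 64.4 TPM (9 called toward replicate 1, 1 toward replicate 2), and for Muc6 and Tff2, which mucous glands of the stomach and Brunner's glands of the duodenum make, 12156 and 26.8 TPM with both higher in replicate 1. No gene of these 3 lists was at 0 in both libraries. TPM is the transcript abundance per length at a fixed total, so large sums lower the values of all other genes in that library. The 3 lists held 11.02% of TPM in replicate 1 against 0.131% in replicate 2. Without them the other values in replicate 1 would be 1.12 times as large. Sums larger in replicate 2, such as that of the enterocyte genes given next, act the other way. They were not removed, so 1.12 is not the net shift. Absorptive enterocyte genes, which define the tissue, summed to 13040 and 27804 TPM, with 7 of 10 called toward replicate 2 and 1 toward replicate 1, Alpi, at 7153 and 1568 TPM. Values given below as a pair have replicate 1 first. The part of these tissue differences in the stem cell gene values below was not tested.

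Ratios between libraries rest on counts scaled by TMM, the trimmed mean of M values. A gene was called when an exact two-sided binomial test gave a Benjamini-Hochberg adjusted p under 0.05 over all genes tested and the ratio was at least 2-fold. The test compares these 2 libraries and covers counting error only. By this rule 26.1% of all tested genes were called, 14.6% higher in replicate 1 and 11.5% higher in replicate 2. Of the 10 stem cell genes, 3 were called, Sox9, Rnf43 and Znrf3, all higher in replicate 1, and none was higher in replicate 2 beyond the limit. A share of 3 in 10 is near the background for calls in either direction. The coefficient of variation between the libraries beyond counting error, estimated by edgeR over all genes with both taken as 1 group, was 0.529.

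**Figure D1:**
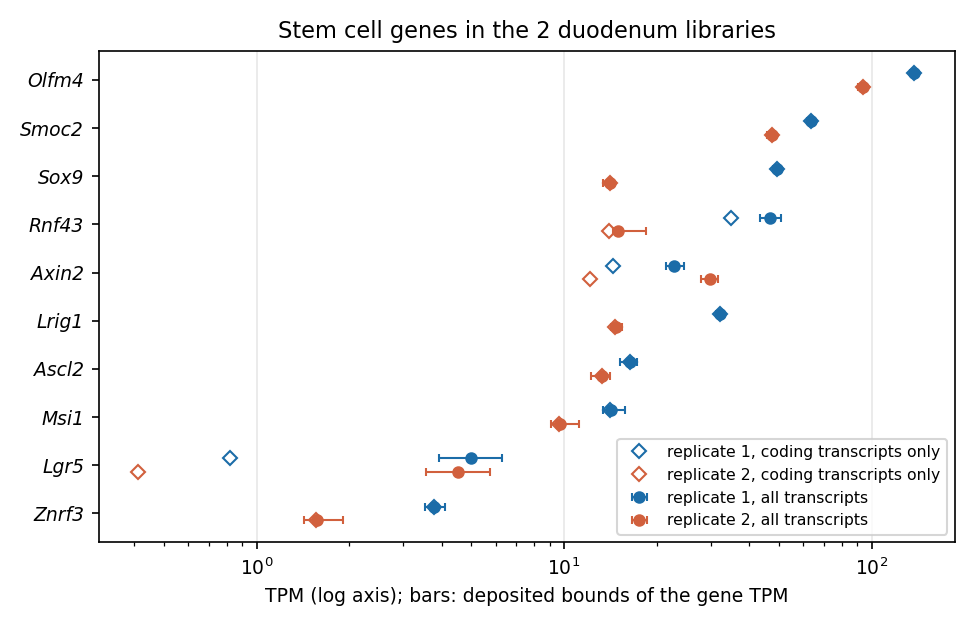
TPM on a log axis for each stem cell gene in replicate 1 (blue) and replicate 2 (orange). Filled circles are the gene value with the deposited bounds as bars, and open diamonds count coding transcripts only; Lgr5 moves from 4.98 and 4.51 TPM to 0.82 and 0.41 when noncoding transcripts are left out.

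The order of the levels, by mean TPM, was Olfm4, Smoc2, Sox9, Rnf43, Axin2, Lrig1, Ascl2, Msi1, Lgr5 and Znrf3, as the plot of levels on a log axis shows. They summed to 392 TPM in replicate 1 and 244 TPM in replicate 2 (318 ± 104, SD, n = 2), which is 0.0392% and 0.0244% of all TPM. Olfm4 and Smoc2, both secreted proteins, made up 51.4% and 57.9% of these sums. Taken over both libraries, most neighbours in the order could not be separated: their values overlapped between every pair of neighbours except Olfm4 over Smoc2, Msi1 over Lgr5, and Lgr5 over Znrf3. Compared within a library, 6 of the 9 neighbour pairs kept this order in both, those 3 and Smoc2 over Sox9, Lrig1 over Ascl2, and Ascl2 over Msi1. With coding transcripts only, Lgr5 came last, at a mean of 0.615 TPM below Znrf3 at 2.68 TPM.

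Lgr5 is the R-spondin receptor by which these stem cells are most often recognised (ENSMUSG00000020140.11, minus strand, chr10:115450311-115587780 in mm10). Its gene level was 4.98 TPM in replicate 1 and 4.51 TPM in replicate 2 (4.75 ± 0.33, SD, n = 2), from 225 and 142 counts. It ranked 8009 and 7675 from the top among 21474 protein-coding genes, and ninth of the 10 by mean TPM. The scaled count was 1.36-fold higher in replicate 1 (95% Clopper-Pearson interval 1.10 to 1.69, exact binomial test with Benjamini-Hochberg adjusted p = 0.0069), short of the 2-fold limit. As much as 57.1% of tested genes differed at least as far.

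Most of that gene level did not come from the transcript that encodes the receptor. Lgr5-203, a 607 nt processed transcript without a coding sequence, carried 81.3% and 89.0% of the gene's TPM, at 4.05 and 4.02 TPM. The full-length coding transcript Lgr5-201, of 4714 nt, had 0.64 and 0.36 TPM. In counts the picture was different: Lgr5-203 held 69.3 and 62.7 expected counts, or 30.8% and 44.2% of the gene's counts, and Lgr5-201 held 119 and 64.9, or 52.9% and 45.7%. TPM divides by length, so a short transcript with fewer reads can carry the larger share. In both libraries the TPM per count of Lgr5-203 exceeded that of Lgr5-201 by more than 607 nt against 4714 nt alone would give. The deposited bounds for Lgr5-203 ran from 2.78 to 5.17 TPM in replicate 1 and from 2.77 to 4.99 TPM in replicate 2; both lower bounds lie above the values of Lgr5-201. Coding transcripts together gave Lgr5 0.82 and 0.41 TPM, which is 16.5% and 9.21% of the gene value. In counts the log2 ratio was -0.39 over all Lgr5 transcripts and -0.61 over coding ones, short of the limit both times. In TPM it was -0.14 over all transcripts, and over coding ones it reached the 2-fold limit.

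The sequence that sets Lgr5-203 apart is short, and it is shown with those of the noncoding transcripts of Rnf43 and Axin2 that had the highest mean share because the gene levels of all 3 depend on how reads at these places are shared out. Each stretch is from the GENCODE M21 transcripts, with mm10 coordinates, 5′ to 3′ along the gene's strand. Capitals mark bases found in no other transcript of the gene, and lower case is 60 bases of the adjoining exon, which other transcripts share. These are the last 60 bases of that exon for Lgr5-203 and the first 60 for Rnf43-205 and Axin2-203. The stretches lie at chr10:115520533-115520665 on the minus strand for Lgr5-203, chr11:87729374-87729459 on the plus strand for Rnf43-205, and chr11:108943621-108943715 on the plus strand for Axin2-203.
Lgr5-203: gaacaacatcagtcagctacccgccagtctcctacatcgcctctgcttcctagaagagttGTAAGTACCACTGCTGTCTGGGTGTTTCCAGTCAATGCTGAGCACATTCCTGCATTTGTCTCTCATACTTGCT
Rnf43-205: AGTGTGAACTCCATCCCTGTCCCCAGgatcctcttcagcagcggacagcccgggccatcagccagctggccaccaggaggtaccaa
Axin2-203: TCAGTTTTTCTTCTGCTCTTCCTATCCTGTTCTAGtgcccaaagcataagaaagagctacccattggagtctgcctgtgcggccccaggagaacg
All 3 stretches are contiguous in the genome. In Lgr5-203 the 73 private bases run on from the exon and open with GTAAG, letters typical of the start of an intron. The 26 private bases of Rnf43-205 and the 35 of Axin2-203 run into an exon and close with AG, as the end of an intron does. Apart from its splice pattern and its ends, each transcript is told from the others of its gene by these bases alone.

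Rnf43, a ubiquitin ligase that takes Frizzled off the membrane, was the more abundant of the pair of brakes (ENSMUSG00000034177.11, plus strand, chr11:87662722-87735539). Replicate 1 had 46.7 TPM and 4156 counts, and replicate 2 had 14.98 TPM and 1581 counts (30.8 ± 22.4 TPM, SD, n = 2). Rnf43 was 2.25-fold higher in replicate 1 (interval 2.13 to 2.39, exact binomial test with Benjamini-Hochberg adjusted p = 1.8e-182), and 13.6% of tested genes differed at least as far. Its TPM ratio was larger, at 3.12-fold, and came to 2.501-fold with coding transcripts only.

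One short transcript of Rnf43 carried a large TPM from few counts. Rnf43-205, a 378 nt retained intron fragment, had 11.4 TPM in replicate 1 (deposited bounds 8.07 to 15.1) and 0.47 TPM in replicate 2 (bounds 0.0248 to 1.88), where Rnf43-208, another retained intron fragment, had 0.54 TPM. These were 24.4% and 3.13% of the gene's TPM but 2.13% and 0.194% of its counts. The coding transcript Rnf43-203 led in both libraries, with 54.1% and 64.7% of TPM, followed among coding transcripts by Rnf43-202 with 12.5% and 22.7%. Coding transcripts together had 34.9 and 13.95 TPM.

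Rnf43 also has several annotated starts. Transcripts with the first exon that ends at base 87664867 of chromosome 11 (Rnf43-202, Rnf43-203 and Rnf43-206) held 67.2% and 87.4% of its TPM. Those with the first exon ending at 87663222 (Rnf43-204 and Rnf43-209) held 3.11% in replicate 1 and are listed at 0 in replicate 2; the deposited bounds of Rnf43-209 ran from 0.871 to 2.19 TPM in replicate 1 and up to 0.168 TPM in replicate 2. Rnf43-201, whose first exon ends at 87700123, held 5.07% and 5.86%. The remaining 24.6% and 6.77% belonged to fragments that begin inside the gene body. Below are the bases around both minor starts (the upstream one that of Rnf43-209, the downstream one that of Rnf43-201), taken from RefSeq (GRCm38.p6), because the upstream one has reads assigned in 1 library alone; lower case is the 60 bases before the start and capitals are the first 30 transcribed bases. They lie on the plus strand at chr11:87663027-87663116 and chr11:87699837-87699926. Rnf43-206 begins further upstream, at base 87662722. Its first exon spans the whole stretch printed for the upstream start, lower case included.
Rnf43 upstream start: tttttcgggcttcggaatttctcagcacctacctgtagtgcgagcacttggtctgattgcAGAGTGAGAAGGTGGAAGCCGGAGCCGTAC
Rnf43 downstream start: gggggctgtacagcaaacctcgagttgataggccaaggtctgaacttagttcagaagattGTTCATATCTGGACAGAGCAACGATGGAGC
The Tcf recognition letters CTTTGAA or CTTTGAT, searched on both strands, were in neither full window of 250 bases before to 50 after the start. The same held for the windows of Lrig1, Ascl2, Axin2 and Olfm4, so that 0 of 6 windows of 5 genes had a match. Over all genes 8.65% of 32851 windows had one, and 6 windows are too few to differ from that share. The starts of the leading Rnf43 first exon, which ends at 87664867, had no window and were not searched.

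Znrf3, the second ligase, was the least abundant of the 10 (ENSMUSG00000041961.10, minus strand, chr11:5276324-5444847). It had 3.78 TPM and 827 counts in replicate 1 and 1.57 TPM and 332 counts in replicate 2 (2.68 ± 1.56 TPM, SD, n = 2). This was a 2.14-fold higher value in replicate 1 (interval 1.88 to 2.43, exact binomial test with Benjamini-Hochberg adjusted p = 1.8e-33), the called gene nearest the 2-fold limit, and its interval reaches below it. Per length, Rnf43 exceeded Znrf3 12.3-fold in replicate 1 and 9.54-fold in replicate 2, or 9.21-fold and 8.94-fold with coding transcripts only. The 2 coding transcripts with any signal split the Znrf3 level almost evenly, Znrf3-203 with 56.2% and 53.9% and Znrf3-201 with 43.8% and 46.1%.

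**Figure D2:**
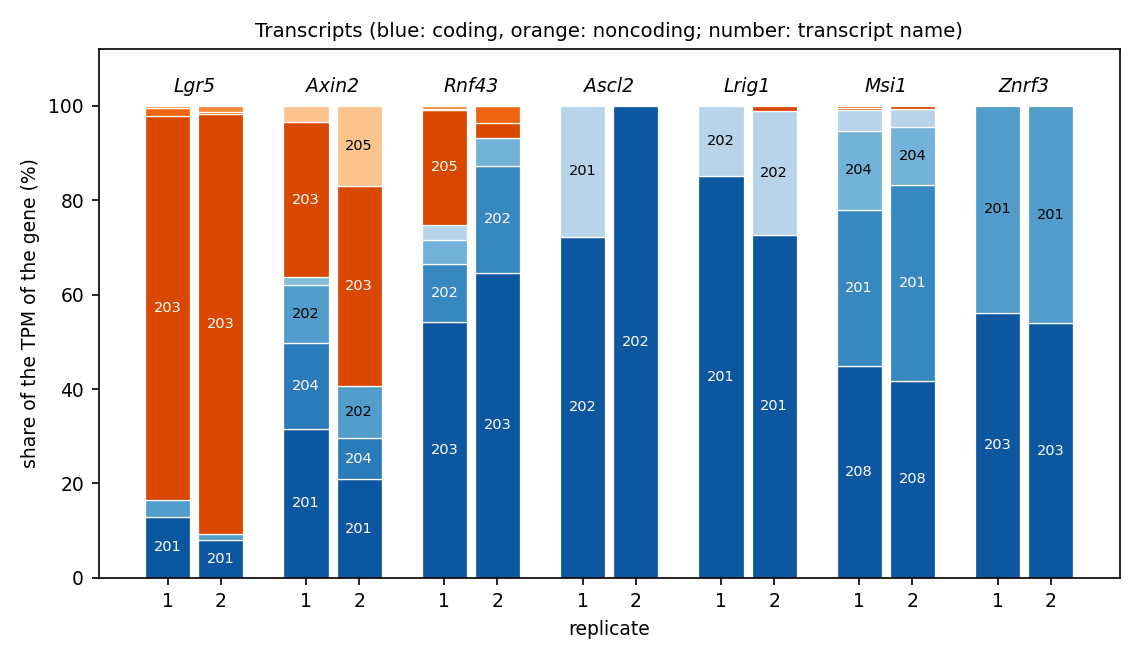
Share of each gene's TPM held by its transcripts, in percent, for the 7 stem cell genes with several transcript rows, with replicate 1 and replicate 2 as adjacent bars. Blue segments are coding and orange segments noncoding transcripts, labelled by transcript number; coding transcripts fill 16.5% and 9.21% of the Lgr5 bars and 63.6% and 40.6% of the Axin2 bars.

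Axin2 is a scaffold of the complex that degrades β-catenin and is itself a Wnt target (ENSMUSG00000000142.11, plus strand, chr11:108920349-108950783). Its 22.8 TPM in replicate 1 and 29.8 TPM in replicate 2 (26.3 ± 4.99, SD, n = 2) came from 2181 and 2452 counts. Of the 10 genes it had the lone ratio above 1 in replicate 2, 1.31-fold (interval 1.24 to 1.39, exact binomial test with Benjamini-Hochberg adjusted p = 9.8e-20), which was not called. The direction depended on which transcripts were counted. Coding transcripts gave 14.5 and 12.1 TPM (log2 ratio of TPM -0.26), and 1584 and 1365 counts (log2 ratio 0.0082).

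The Axin2 level was spread over several transcripts. The noncoding Axin2-203 led in both libraries, with 33.0% and 42.5% of TPM. The full-length coding Axin2-201 had 31.6% and 20.9%, and in counts it was the largest in both libraries, with 54.9% and 40.7% against 26.1% and 37.5% for Axin2-203. A second noncoding transcript, Axin2-205, had 0.77 and 5.05 TPM. Both noncoding transcripts thus had the larger TPM in replicate 2, while Axin2-201 was at 7.19 and 6.22 TPM.

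Ascl2, a basic helix-loop-helix transcription factor that helps set stem cell identity downstream of Wnt, had the smallest ratio of scaled counts (ENSMUSG00000009248.5, minus strand, chr7:142966829-142969264). It had 16.4 TPM in replicate 1 and 13.3 TPM in replicate 2 (14.8 ± 2.16, SD, n = 2), from 949 and 733 counts. The 1.11-fold difference (interval 1.01 to 1.22, exact binomial test with Benjamini-Hochberg adjusted p = 0.047) was exceeded by 83.3% of tested genes. Of its coding transcripts, Ascl2-202 held 72.3% in replicate 1 and 100% in replicate 2, and Ascl2-201 held 27.7% and is listed at 0 in replicate 2. This split is not settled by the reads: the deposited posterior means put Ascl2-201 at 46.5% and 38.4%, and its deposited bounds in replicate 2 reach up to 12.1 TPM. The models of these transcripts in the deposited tables are 1605 and 1612 nt long and differ from those of GENCODE M21.

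Sox9 differed most of the 10 (ENSMUSG00000000567.5, plus strand, chr11:112782224-112787760). This HMG-box transcription factor is a Wnt target in the crypt and is needed for Paneth cells. It stood at 49.3 TPM and 7961 counts in replicate 1 and at 14.1 TPM and 2188 counts in replicate 2 (31.7 ± 24.9 TPM, SD, n = 2). Sox9 was 3.12-fold higher in replicate 1 (interval 2.97 to 3.27, exact binomial test with Benjamini-Hochberg adjusted p below 2.2e-308), and 6.02% of all tested genes differed at least as far. It has 1 transcript row, so no transcript choice bears on this ratio.

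Markers of cells that carry Sox9 did not all lie on the same side. Of 7 pancreatic duct markers, 4 were higher in replicate 1: Muc1 106-fold, Spp1 23.8-fold, Cftr 4.99-fold and Ambp 2.77-fold. The duct list summed to 1243 and 1201 TPM, nearly all of it Krt19, a keratin that gut epithelium also makes, and without Krt19 to 160 and 40.6 TPM. None of the 7 was at 0 in both libraries. The 10 Paneth markers summed to 2687 and 8083 TPM, with 6 called toward replicate 2 (5 with ERCC scaling) and 3 toward replicate 1. Defa3, an antimicrobial defensin, had 731 and 3702 TPM, and Itln1, a lectin, 316 and 1069 TPM. Defa20 and Defa21 had 95 and 129 counts in replicate 1 and 0 in replicate 2. Like Defa3, they belong to a family of near-identical copies, so the single values of all these defensins are uncertain. The part of duct or Paneth cells in the Sox9 ratio was not tested.

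**Figure D3:**
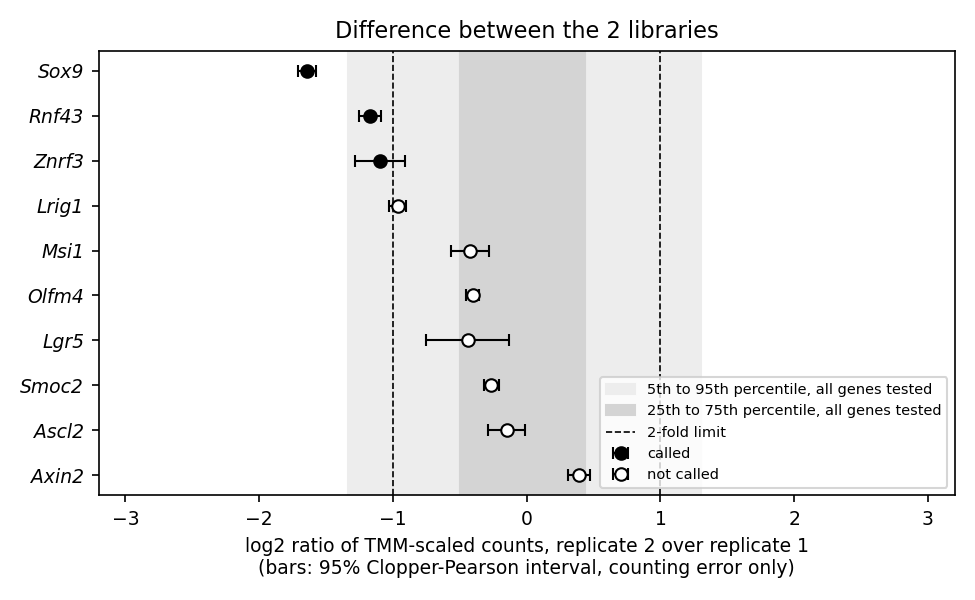
Log2 ratio of scaled counts, replicate 2 over replicate 1, for each stem cell gene, with 95% Clopper-Pearson intervals that cover counting error only. Grey bands span the 5th to 95th and the 25th to 75th percentiles of all genes tested; Sox9 alone lies outside the wider band, and filled points mark the 3 called genes.

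Olfm4, a secreted olfactomedin protein made in quantity by crypt base cells, was the most abundant of the 10 (ENSMUSG00000022026.6, plus strand, chr14:79984081-80023139). Its level was 138 TPM in replicate 1 and 93.7 TPM in replicate 2 (116 ± 31.1, SD, n = 2), from 8175 and 5297 counts. The ranks were 838 and 1430 among protein-coding genes. The scaled count was 1.32-fold higher in replicate 1 (interval 1.28 to 1.37, exact binomial test with Benjamini-Hochberg adjusted p = 8.6e-57), and 56.0% of tested genes differed at least as far. Per length Olfm4 exceeded Lgr5 27.6-fold in replicate 1 and 20.8-fold in replicate 2, and 168-fold and 228-fold with coding transcripts only.

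Smoc2, a secreted matricellular protein enriched in Lgr5+ cells, came second (ENSMUSG00000023886.9, plus strand, chr17:14279506-14404790). It had 63.8 TPM and 6898 counts in replicate 1 and 47.5 TPM and 4927 counts in replicate 2 (55.6 ± 11.5 TPM, SD, n = 2). The ratio was 1.20-fold (interval 1.16 to 1.24, exact binomial test with Benjamini-Hochberg adjusted p = 3.7e-22), and 70.3% of tested genes differed at least as far. With 1 transcript row each, Smoc2 and Olfm4 give levels that do not hang on how reads are shared among rows. The Olfm4 row spans chr14:80000302-80021930, and the rest of the gene span given above has no row.

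Lrig1, a transmembrane protein that dampens ErbB growth factor receptors, lay just outside the limit (ENSMUSG00000030029.10, minus strand, chr6:94604529-94700158). It had 32.2 TPM and 6151 counts in replicate 1 and 14.8 TPM and 2702 counts in replicate 2 (23.5 ± 12.3 TPM, SD, n = 2). The 1.95-fold ratio (interval 1.86 to 2.04, exact binomial test with Benjamini-Hochberg adjusted p = 9.8e-197) missed the 2-fold limit that Znrf3 at 2.14-fold passed, and the intervals of both genes span it. Lrig1-201 was the main transcript, with 85.2% and 72.7% of TPM, and the coding Lrig1-202 held 14.8% and 26.1%.

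Msi1, an RNA-binding protein of crypt progenitors and neural stem cells, had 14.2 TPM and 1051 counts in replicate 1 and 9.70 TPM and 673 counts in replicate 2 (11.97 ± 3.21 TPM, SD, n = 2; ENSMUSG00000054256.7, plus strand, chr5:115429599-115455698). The ratio was 1.34-fold (interval 1.21 to 1.48, exact binomial test with Benjamini-Hochberg adjusted p = 6.2e-09), and 55.5% of tested genes differed at least as far. Its level came from several coding transcripts, Msi1-208 with 44.8% and 41.7%, Msi1-201 with 33.2% and 41.6%, and Msi1-204 with 16.8% and 12.2%. Neural markers, relevant because neurons of the gut wall can hold Msi1, summed to 32.5 and 32.0 TPM. Uchl1 alone had 14.1 and 21.3 TPM of these sums, and the median log2 ratio of the list was -0.53. Of 7, 3 were higher in replicate 1 and none was at 0 in both libraries, and their part in the Msi1 values was not tested.

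Across the 10 genes, 9 had a ratio above 1 in replicate 1, and the median log2 ratio of replicate 2 over replicate 1 was -0.41, against -0.04 for all genes tested. The middle 50% of all genes ran from -0.50 to 0.44 and the middle 90% from -1.34 to 1.31. Scaling by the ERCC spike-in RNAs in place of TMM shifted the log2 ratios of scaled counts by -0.24, before 0.5 CPM was added, and the median of all genes tested from -0.04 to -0.24 after it. On that scale the calls over all genes split into 3208 higher in replicate 1 and 1257 higher in replicate 2, against 2324 and 1830 with TMM. Lrig1 then joined the called genes, which made 4 of 10 against a background of 20.1% higher in replicate 1. With TMM, ERCC or DESeq2 scaling, Sox9, Rnf43 and Znrf3 were called. Of the 46 transcript rows 12 were listed at 0 in both libraries, and in all 7 genes with several rows the same transcript led in both.

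**Figure D4:**
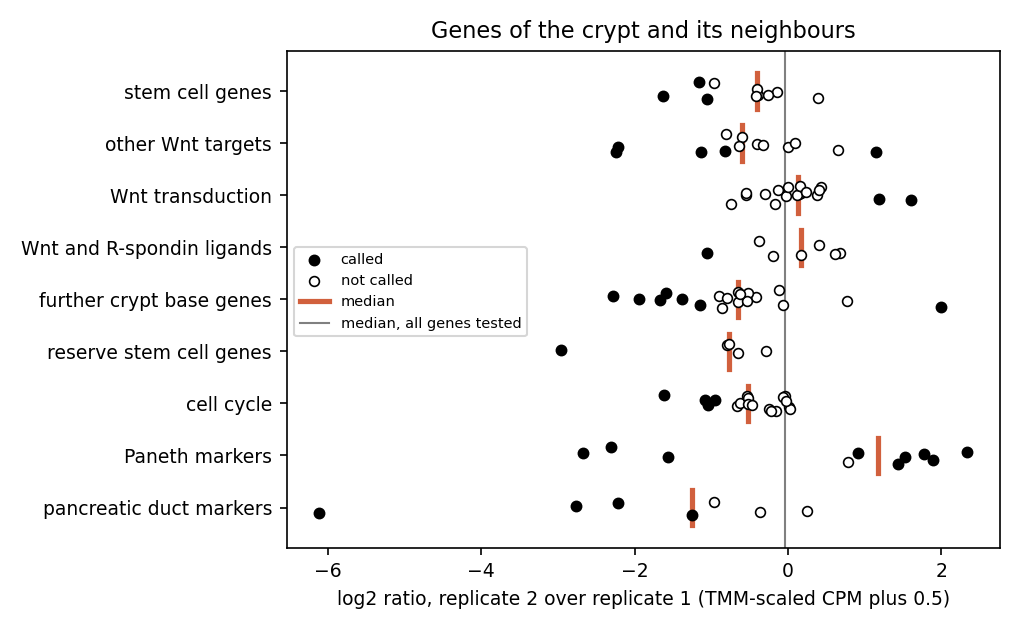
Log2 ratio, replicate 2 over replicate 1, of CPM plus 0.5, with 1 point per gene for the stem cell genes and 8 related gene lists. Orange bars are list medians, the grey line is the median of all genes tested, and filled points are called genes, for which the 2-fold limit was applied before 0.5 was added.

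The rest of the Wnt pathway was set beside the 10 genes from lists chosen by function. Among 18 genes that receive or pass on the Wnt signal, none was called toward replicate 1, 2 were called toward replicate 2 and 16 on neither side. The median log2 ratio was 0.13 with TMM and -0.11 with ERCC scaling, where 1 gene was called toward replicate 1. Ctnnb1, which encodes β-catenin, had 83.1 and 85.8 TPM, and Dvl1, which relays the signal from Frizzled, 137 and 156 TPM. Both called genes were rare: Lef1 had 8 and 63 counts, and Lgr6 2 and 30. Lgr4, the more widely expressed relative of Lgr5, had 16.8 TPM in both libraries, 3.38 and 3.72 times the gene TPM of Lgr5. Of 7 tested Wnt and R-spondin genes 1 was called, Wnt9b with 84 counts in replicate 1 and 24 in replicate 2, and the most abundant by mean TPM were Wnt4 with 5.64 and 5.65 TPM and Wnt5a with 5.29 and 3.22 TPM. In counts Wnt5a had 530 and 703, a scaled ratio of 1.55-fold toward replicate 2 that was not called, so its TPM and count ratios differ in direction.

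Among 13 further Wnt targets, 4 were called toward replicate 1, 1 (Sp5) toward replicate 2 and 8 on neither side, with a median log2 ratio of -0.60. Cd44, a hyaluronan receptor of crypt cells, had 16.1 and 2.28 TPM, and its scaled count was 4.86-fold higher in replicate 1. Notum, a secreted enzyme that inactivates Wnt ligands, was 6.64-fold higher in replicate 1 (4.54 and 0.61 TPM), and Ephb3, a receptor that positions cells along the crypt, 2.21-fold (20.2 and 8.77 TPM). Sp5, a transcription factor induced by Wnt, went the other way, with 60.9 and 121 TPM and a 2.22-fold higher scaled count in replicate 2, and was not called with ERCC scaling. Ephb2 had 57.0 and 19.0 TPM and, at 1.76-fold in counts, was not called. Targets of the pathway thus had ratios on both sides of 1, with the median and most calls toward replicate 1. Sox9 and Axin2 also lay on different sides among the 10 genes. Axin2 was not called, however, and its direction depended on which transcripts were counted.

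Of 19 other genes enriched in crypt base columnar cells, 6 were called toward replicate 1, 1 toward replicate 2 and 12 on neither side, with a median of -0.66. With ERCC scaling 10 were higher in replicate 1. Mecom at 6.90-fold, Etv4 at 4.45-fold, both transcription factors, and the membrane protein Prom1 at 3.42-fold were higher in replicate 1, and the growth factor Pdgfa was 4.04-fold higher in replicate 2 (27.4 and 95.3 TPM). Rgmb, second to Pdgfa by mean TPM and above it in replicate 1, had 63.7 and 52.5 TPM and was not called. Among 5 genes linked to slow-cycling or injury-induced stem cells, Clu, with 676 and 76.8 TPM, was 7.84-fold higher in replicate 1, and 4 were not called, among them Hopx with 171 and 98.9 TPM. With ERCC scaling 3 of the 5 were called toward replicate 1, and with TMM taken without the genes of other organs 2 were. Clu is also made in quantity by cells outside the crypt.

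The closest relatives of the 10 genes showed no called gene higher in replicate 1. Of 14 paralogues 11 were tested. Lgr6 and Smoc1 (2.14-fold, 2.51 and 4.81 TPM) were higher in replicate 2, though Smoc1 was not called with ERCC scaling. The other 9 were not called. Axin1, the constitutive relative of Axin2, had 12.7 and 12.3 TPM. Of 19 cell cycle genes 4 were higher in replicate 1 and 15 were not called, with a median of -0.52. The replication helicase subunits Mcm4 at 3.21-fold, Mcm6 at 2.18-fold and Mcm2 at 2.08-fold were among the 4, while Pcna, the sliding clamp, had 57.4 and 44.3 TPM and Ccna2, a cyclin, 46.7 and 52.7 TPM.

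Several of the 10 genes overlap other annotated genes, and no label or header used here states whether the counting used strand. Genes on the opposite strand of Axin2 (Gm11670) and Lgr5 (A930009A15Rik) and a noncoding gene on the strand of Olfm4 (Gm6999) had 0 counts in both libraries. The noncoding 1110028F11Rik, on the strand of Rnf43 over 3936 bases, had 10 and 0 counts. Values of the antisense genes of Smoc2 (4930474M22Rik) and Msi1 (4930430O22Rik) were not matched by symbol and are not analysed here. Slc25a26, which overlaps Lrig1 over 144 bases on the opposite strand, had 246 and 212 counts against the 6151 and 2702 of Lrig1. The expected counts of all 10 genes were whole numbers in both libraries to the 2 decimals deposited.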

How the data were processed

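Polyadenylated RNA of whole duodenum was measured in 2 libraries of 1 group, numbered by the biological replicate in the labels. The authors deposited, per gene and transcript and per the file headers, expected counts, TPM, posterior mean estimates and bounds, and, per transcript, isoform percent (the percent of its gene's TPM). Coordinates and gene models are mm10 and GENCODE M4, per the text files deposited beside the tables. The sources used here do not give the aligner, quantifier or strand setting. Coordinates and transcript names printed here come from GENCODE M21 on mm10; 43 of the 46 transcript lengths were equal in both. Tables of junctions and contigs in mm9 were not used here. Rows that name no gene (26248 numbered rows, 96 ERCC spike-ins holding 1.35% and 1.36% of counts, and 1 phiX row) were left out.

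Expected counts were rounded and scaled by TMM (edgeR 4.0.16, R 4.3.3). Genes whose counts averaged 10 or more were compared with an exact two-sided binomial test (scipy 1.17.1, statsmodels 0.14.6) and Benjamini-Hochberg adjustment over 15921 genes. A call needed an adjusted p under 0.05 and a 2-fold ratio. Log2 ratios are of CPM plus 0.5 and understate low genes; folds are without it. The script was tested on simulated counts that had counting error only. That check does not cover spread between libraries beyond counting error. With 2 libraries and 1 group there is no dispersion test between conditions, and intervals cover counting error only, since reads without molecular identifiers are not independent molecules. Alternatives were DESeq2 1.42.0 size factors, ERCC scaling, TMM without the genes of other organs, posterior mean counts, no filter, a 4-fold limit, a pseudocount of 2, TPM ratios, leaving out either library and, added after the data were seen, coding transcripts only. All 10 genes are named; of other lists, up to 4 called genes of largest ratio with a mean of at least 1 TPM and the 2 of highest TPM. Lef1, Lgr6, Wnt9b and the overlapping genes fall outside that rule and were named after their values were seen. The members and lists were chosen with earlier results of these data known.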

Additional observations from a re-analysis of the deposited data

How the results depend on the processing

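The calls of Sox9, Rnf43 and Znrf3 held under the TMM, DESeq2 and ERCC scalings, posterior mean counts and no filter on low counts. With a 4-fold limit 0 of the 10 genes were called, and over all genes the calls numbered 840 toward replicate 1 and 500 toward replicate 2. Lrig1 passed the limit with ERCC scaling (log2 ratio -1.20), on TPM (-1.12) and on coding TPM (-1.14). The alternatives with coding transcripts only, chosen after seeing the data, turned the direction of Axin2 on TPM (log2 ratio -0.26), put Lgr5 at the 2-fold limit on TPM but not on counts (-0.61), and moved the mean levels of Lgr5 to 0.615 TPM and of Axin2 to 13.3 TPM; these follow from leaving out noncoding transcripts. With a pseudocount of 2 the log2 ratio of Znrf3 was -0.93. Leaving out either library returns the value of the other, given above, and so is no further check. The summed level was then 392 or 244 TPM. The share of Lgr5-203 was 81.3% or 89.0%, of Rnf43-203 54.1% or 64.7% and of Axin2-203 33.0% or 42.5%. Ratios could not be had without a library. No paired analysis was possible because there is 1 group. Depth limits Lgr5, with 225 and 142 counts, and the rarest transcripts.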
